A study of Mus musculus with 6 samples.

Results

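The genes described here are the core genes of apoptosis and pyroptosis in the mouse cochlear modiolus, the bony axis of the cochlea that holds the spiral ganglion neurons (SGNs). They are the protein-coding genes whose symbol begins with Casp and a number, Bcl2, Birc and a number, or Gsdm, together with Bax, Bak1, Bid, Bad, Bik, Bok, Mcl1, Apaf1, Cycs, Diablo and Xiap. The choice used names and no measured value. The rule finds 49 of 22028 annotated protein-coding genes, and 46 of the 49 had at least 1 transcript in the table of counts, against 33676 genes of any kind with a listed transcript. The other 3, among them the caspase gene Casp6 and the anti-apoptotic Bcl2a1c, are not analysed here.

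Apoptosis is a contained form of cell death that runs through proteases called caspases. Proteins of the Bcl-2 family decide whether mitochondria release cytochrome c, which joins Apaf1 in the apoptosome and activates an initiator caspase, and inhibitors of apoptosis (IAPs) hold the caspases back. Pyroptosis is a lytic and inflammatory death in which inflammatory caspases cut a gasdermin, whose freed part opens pores in the cell membrane. Most of these proteins are controlled after translation, by cleavage, binding or release, so that RNA levels show the supply of the machinery and not its activity.

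RNA-seq was done on the whole modiolus of male C57BL/6 mice, 8 weeks old at treatment. The 3 control libraries came from mice given saline, and the 3 degenerated libraries from mice given 1 g/kg kanamycin sulfate under the skin and, 30 min later, 0.4 g/kg furosemide into the abdomen, a pairing of drugs that destroys hair cells. Tissue was taken on day 30, and no other time is analysed here. The labels do not say whether libraries came from separate animals, so the p-values measure the spread between these samples, which may be technical.

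The cell type in the labels is the SGN, while the libraries hold many cell types. Of 14 neuron markers 13 were tested, 11 with a log2 fold change below 0 and 2 above. The calcium-binding protein genes Calb2 and Pvalb were the 2 called lower, where 0.715% of all genes tested were. The summed neuron markers were 12152 to 15544 CPM in controls and 7222 to 10646 CPM in degenerated libraries. The unit, CPM, is a gene's counts summed over its listed transcripts and scaled to the same library size in every library. Of 9 hair cell markers 7 were tested and 2, Ocm and Slc26a5, were also called lower. Of the 7, 6 had a log2 fold change below 0 and 1 above. The summed hair cell markers overlapped, at 483 to 733 CPM in controls and 168 to 485 CPM in degenerated libraries. Of 8 macrophage markers tested 4 had a log2 fold change above 0 and 4 below, 2 were called higher, the complement genes C1qb and C1qc, and the summed level overlapped (951 to 2875 CPM in controls and 1772 to 3163 CPM in degenerated libraries). Neutrophil markers, of which 9 of 12 were tested and 0 called, summed to 256 CPM in control replicate 1 and to 13470 CPM in control replicate 2, so that the controls themselves enclosed the degenerated libraries (645 to 4658 CPM). In such tissue, fewer cells of a type and less RNA per cell cannot be told apart. Depth was 12480876 to 15549319 counts per library.

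No gene of the set was called in either direction 30 days after the drugs. A gene was called where edgeR's quasi-likelihood test gave an unadjusted p under 0.01 and the log2 fold change, degenerated over control, was beyond 0.2. Of the 46 listed genes 31 passed the filter on low counts and were tested, and 0 were called higher and 0 lower, where 2.01% of all 14118 genes tested were called higher and 0.715% lower. At such shares, 0 calls in 31 genes say little about the set. At an adjusted p under 0.05 there were also 0, as over all genes (0%), and the smallest adjusted p among the 31 was 0.480. At an unadjusted p under 0.05 there was 1, Bcl2l12, against 9.68% of all genes. DESeq2 gave 2 such genes (Bcl2l12 and Gsdmd), edgeR's exact test 1 and limma-voom 0, and each of these tools called 0 under the rule. The 3 libraries of each group did not overlap for 1 of the 31, Gsdmd, where 17.7% of all genes did not overlap.

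The log2 fold changes of the 31 genes were centred on 0. There were 16 above 0 and 15 below it, and the median was 0.0011, beside -0.0034 over all genes tested. They ran from -1.33 (Bcl2l12) to 1.00 (Xiap), and 25 of the 31 lay within 0.5 of 0 (80.6%, against 68.5% of all genes). The precision differed between genes. The 95% interval lay within 1 of 0 on the log2 scale for 13 genes and within 0.5 for 3, Bcl2l13, Birc2 and Cycs. For the other 18 it reached past 1, so that a doubling or a halving was not excluded for them by these libraries.

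**Figure D1:**
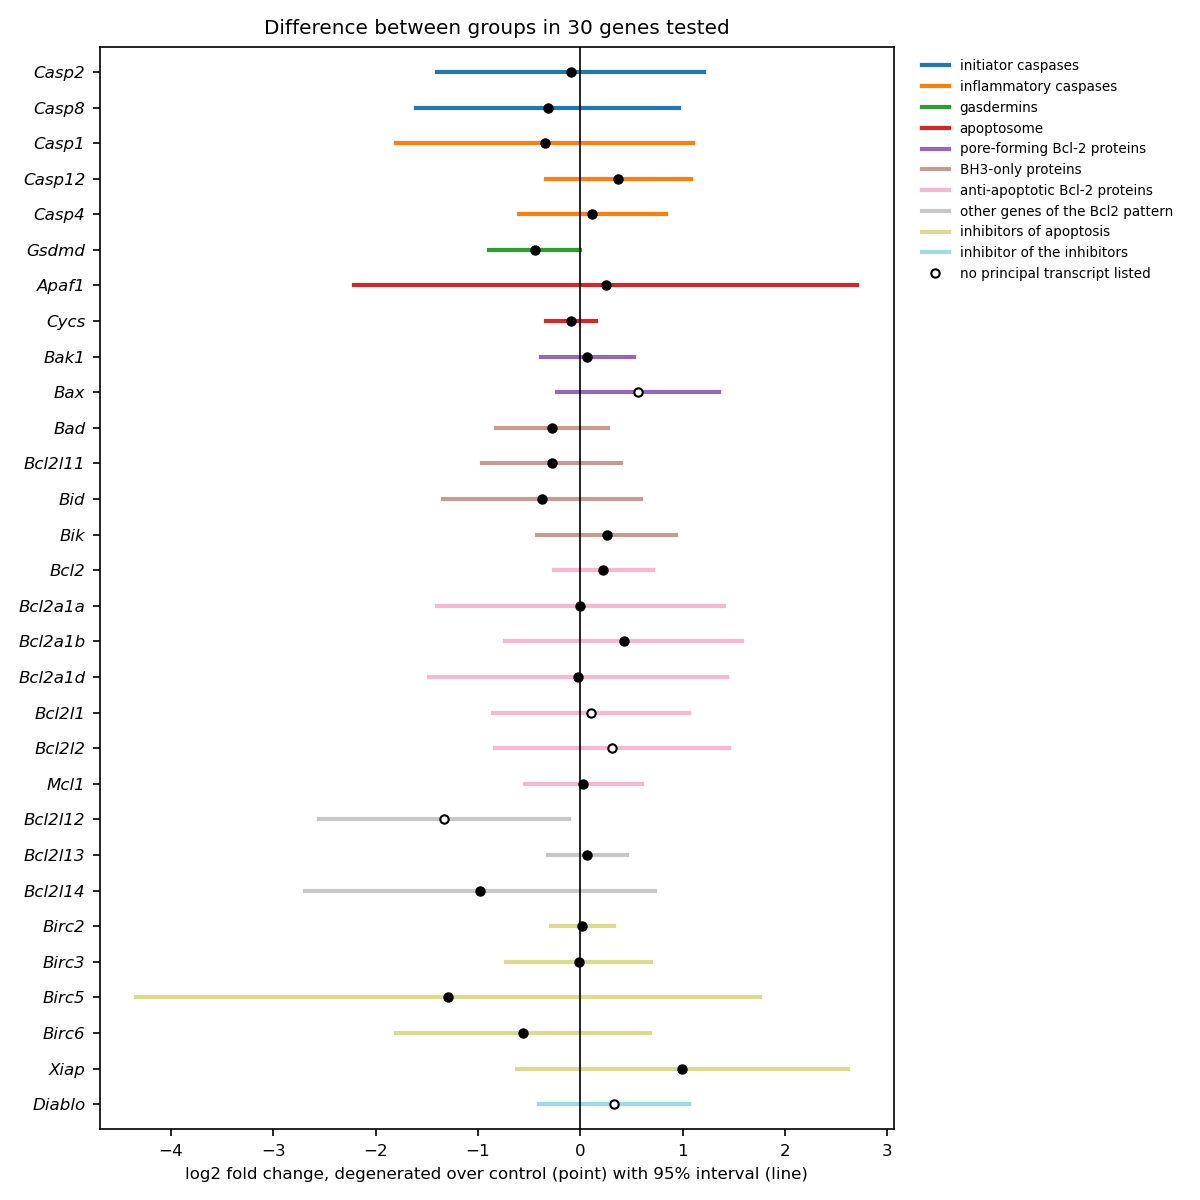
Log2 fold change, degenerated over control, of 30 of the apoptosis and pyroptosis genes tested (x axis, points), with the 95% interval of edgeR's fit as a line coloured by role (open points: genes whose principal transcript was not listed). Bcl2l14 has a filled point, though its listed principal transcript had 0 counts. Every interval drawn includes 0 except that of Bcl2l12, and Birc5 and Apaf1 have the widest.

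Among the caspases that start apoptosis, Casp8, the caspase of death receptors, had 18.7, 14.4 and 31.2 CPM in the 3 controls and 7.05, 22.5 and 21.9 CPM in the degenerated libraries. The lowest value was that of degenerated replicate 1 and the groups overlapped. Its log2 fold change was -0.32 ± 0.53 (SE, n = 3 per group; adjusted p = 0.874 by edgeR). Casp2, which responds to stress in the nucleus and cytosol, had 9.13, 41.2 and 35.7 CPM in controls and 27.8, 25.4 and 27.5 CPM in degenerated libraries, so that the controls held both the highest and the lowest values. Casp9, the caspase of the apoptosome, was listed with a part of its transcripts and without a coding one. That part had 0.463, 0.566 and 0.128 CPM in controls and 0.342, 0.493 and 0.947 CPM in degenerated libraries, too few to test. Casp8ap2, an adaptor named for Casp8, was likewise listed without a coding transcript and not tested.

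Of the inflammatory caspases, which act in pyroptosis, Casp1 had 4.24, 18.0 and 16.8 CPM in controls and 7.39, 8.73 and 14.6 CPM in degenerated libraries. Casp1 cuts interleukin-1 beta and gasdermin D, and its only annotated transcript was listed. Its lowest and highest values were both in controls, and its log2 fold change was -0.35 ± 0.59 (SE; adjusted p = 0.880 by edgeR). Casp4, the mouse sensor of intracellular lipopolysaccharide, had 7.61, 10.3 and 10.8 CPM in controls and 9.23, 8.87 and 13 CPM in degenerated libraries, which overlap, with a log2 fold change of 0.12 ± 0.29. Casp12, linked to stress of the endoplasmic reticulum, had 36.3, 19.1 and 31.8 CPM in controls and 44.3, 37.8 and 30.9 CPM in degenerated libraries. Its sum did not separate the groups (log2 fold change 0.37 ± 0.29, adjusted p = 0.733 by edgeR), while 1 of its transcripts did, as described further on. Casp14, the caspase of cornified skin, had 0 counts in all 6 libraries.

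Gsdmd (chr15:75862327-75867408, plus strand), the gasdermin that Casp1 and Casp4 cut, was the 1 gene of the set whose groups did not overlap. It had 34.5, 42.5 and 48.2 CPM in controls and 29.3, 31.3 and 31.3 CPM in degenerated libraries. Every degenerated value lay below the lowest control, control replicate 1. The means were 41.7 ± 6.91 CPM and 30.7 ± 1.13 CPM (SD, n = 3 each), a fold of 0.73 with a 95% interval of 0.54 to 1.00 and a log2 fold change of -0.45 ± 0.18 (SE). The adjusted p was 0.516 by edgeR's quasi-likelihood test, and an exact permutation test of 3 against 3 cannot go below 0.1. The log2 fold change was between -0.57 and -0.34 when each library was left out in turn. Of its 6 annotated transcripts 1, the principal one, was listed.

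The other gasdermins were near or at 0. Gsdme, a gasdermin that apoptotic caspases can cut, was listed without a coding transcript and had 0.0662, 0.0707 and 0.191 CPM in controls and 0.274, 0.0704 and 0.158 CPM in degenerated libraries, near the level of 3 counts (0.191 to 0.237 CPM in the 6 libraries). Gsdma and Gsdmc4 had few counts, at most 0.958 CPM in a library. Gsdma2, Gsdma3, Gsdmc, Gsdmc2 and Gsdmc3 had 0 counts in all libraries, which allows a level of up to 0.237 CPM in the shallowest library for the listed transcripts, from counting error alone.

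Of the apoptosome, Cycs, which encodes cytochrome c of the respiratory chain, was among the most even genes of the set. It had 331, 311 and 337 CPM in controls and 320, 319 and 279 CPM in degenerated libraries, with only degenerated replicate 3 below the control range. Its log2 fold change was -0.09 ± 0.10 (SE; 95% interval -0.34 to 0.15; adjusted p = 0.806 by edgeR). Apaf1, the scaffold of the apoptosome, had 25.3, 5.73 and 1.15 CPM in controls and 18.1, 10.4 and 9.71 CPM in degenerated libraries. The controls enclosed the degenerated values, and the interval of the log2 fold change was -2.21 to 2.71. In control replicate 3 the principal coding transcript Apaf1-201, which held 93.2% to 96.3% of the gene's counts elsewhere, held 5.56%.

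Of the pore-forming Bcl-2 proteins, which open the outer mitochondrial membrane, Bak1 had 38.3, 50.3 and 35.2 CPM in controls and 42.2, 43.0 and 44.7 CPM in degenerated libraries. These overlap, and the log2 fold change was 0.07 ± 0.18. The sum includes Bak1-201, a form annotated for nonsense-mediated decay. It held 0.177% of the gene's counts in degenerated replicate 3, against 30.2% to 41.6% elsewhere. The coding form Bak1-202 had a log2 fold change of 0.29 ± 0.33 (SE), and its groups overlapped. Bax, whose principal transcript was not listed, had 3.91, 3.25 and 4.79 CPM in controls and 4.51, 6.13 and 7.02 CPM in degenerated libraries. Degenerated replicates 2 and 3 lay above all controls and degenerated replicate 1 did not, and the log2 fold change was 0.56 ± 0.33 (SE; 95% interval -0.23 to 1.35; adjusted p = 0.638 by edgeR). Bok, the related gene, had at most 0.821 CPM in the part listed and was not tested.

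The BH3-only proteins of the set, which switch the pore-formers on or disarm their guards, had 1 log2 fold change above 0 and 3 below. BH3-only genes outside the set, from the p53 and stress list described further on, lay above 0 and were not called. These were Hrk (0.68 ± 0.26), Bmf (0.65 ± 0.94), Pmaip1 (0.18 ± 0.59) and Bbc3 (0.11 ± 0.84, all SE). The groups overlapped for all of them but Hrk. Bbc3 had 1.85, 1.34 and 1.40 CPM in controls and 3.83, 0.423 and 0.710 CPM in degenerated libraries, so its sign rests on degenerated replicate 1. Bid, which Casp8 cuts to link death receptors to mitochondria, had 12.6, 36.8 and 26.7 CPM in controls and 18.1, 19.2 and 21.5 CPM in degenerated libraries. The controls again held both extremes, and the log2 fold change was -0.37 ± 0.40 (SE; adjusted p = 0.802 by edgeR). Bad and Bcl2l11 (Bim) both had a log2 fold change of -0.28, and Bik one of 0.26.

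Of the anti-apoptotic Bcl-2 proteins 7 were tested, 6 with a log2 fold change above 0 and 1 below, the largest 0.43 (Bcl2a1b). Mcl1, a short-lived guard of mitochondria, was the most abundant gene of the set per transcript length, and it had 258, 458 and 458 CPM in controls and 379, 399 and 421 CPM in degenerated libraries. Control replicate 1 was low and the other 2 controls high, and the log2 fold change was 0.03 ± 0.23 (SE; 95% interval -0.54 to 0.60). It was -0.21 without control replicate 1, with no overlap of the groups. Bcl2, the founding member of the family, had 109, 66.6 and 90.8 CPM in controls and 102, 114 and 96.1 CPM in degenerated libraries, which overlap (log2 fold change 0.23 ± 0.20, adjusted p = 0.768 by edgeR). Bcl2l1, which encodes Bcl-xL and is the main guard of many mature neurons, was listed without its principal transcript and had 7.55, 8.07 and 10.7 CPM in controls and 5.20, 11 and 12.1 CPM in degenerated libraries. It was the only tested gene whose highest and lowest values were both in degenerated libraries. Bcl2a1a, Bcl2a1b and Bcl2a1d are near-identical copies whose reads may be split between them, and their sum was 31.4 ± 3.39 CPM in degenerated libraries against 26.0 ± 17.6 CPM in controls (SD, n = 3 each).

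Among the other genes with a Bcl2 name, Bcl2l12 (chr7:44991222-44998712, minus strand) had 3.44, 1.63 and 4.02 CPM in controls and 0.821, 1.06 and 1.74 CPM in degenerated libraries. The groups overlapped by degenerated replicate 3, which lay above control replicate 2. The log2 fold change was -1.33 ± 0.50 (SE; 95% interval -2.55 to -0.11; adjusted p = 0.480 by edgeR). It rests on 1 of 6 annotated transcripts, a retained-intron form with no coding transcript listed, so it is a value of that RNA and not of the coding RNA. Bcl2l14 had a log2 fold change of -0.98 ± 0.70 at the lowest level per length of the genes tested. All its counts were of the retained-intron form Bcl2l14-205, and its listed coding forms had 0 counts in all libraries. This too is not a value of the coding RNA. Bcl2l13, an outer mitochondrial protein, had a log2 fold change of 0.07 ± 0.16.

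The IAPs differed in how evenly they were measured. Birc2, a ubiquitin ligase in TNF receptor signalling, had 110, 99.9 and 126 CPM in controls and 118, 114 and 109 CPM in degenerated libraries, and its log2 fold change was 0.02 ± 0.13 (SE; 95% interval -0.28 to 0.33). Birc3, its close relative, had one of -0.01 ± 0.29. Birc5, which encodes survivin and marks dividing cells, had 1.19, 56.3 and 25.1 CPM in controls and 5.47, 5.56 and 22.7 CPM in degenerated libraries. The controls ranged from the lowest to the highest of all 6, and the log2 fold change of -1.29 ± 1.25 had an interval of -4.34 to 1.75. Birc6, a very large ubiquitin ligase that binds caspases, had 57.1, 118 and 186 CPM in controls and 46.1, 114 and 84.5 CPM in degenerated libraries, and the groups overlapped. Xiap (chrX:42059679-42109656, plus strand), the IAP that blocks caspases directly, had 77, 46.9 and 20.1 CPM in controls and 49.9, 62.0 and 176 CPM in degenerated libraries. Degenerated replicate 3 stood alone at the top, and the log2 fold change of 1.00 ± 0.66 (SE; adjusted p = 0.678 by edgeR) was 0.22 without it. The processed transcript Xiap-207 held 17.2% to 46.0% of the gene's counts in controls and 41.9% to 56.8% in degenerated libraries. The Xiap sum is therefore not a value of the coding RNA alone. Diablo, which frees caspases from the IAPs, had 10.5, 9.48 and 7.08 CPM in controls and 13.4, 12 and 8.60 CPM in degenerated libraries, which overlap (log2 fold change 0.33 ± 0.30), and its principal transcript was not listed. Birc7 and Bcl2l10 had 0 counts in all libraries, and Bcl2l15 had counts in control replicate 3 alone.

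Levels were compared between genes only per length, in TPM, which divides the counts of each listed transcript by its length and scales each library to the same total. On this scale the means over the 6 libraries were highest for Mcl1 (219 TPM), Cycs (192 TPM) and Birc2 (71.2 TPM), and lowest for Bcl2l14 (1.46 TPM). Genes listed in part are understated on it.

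**Figure D2:**
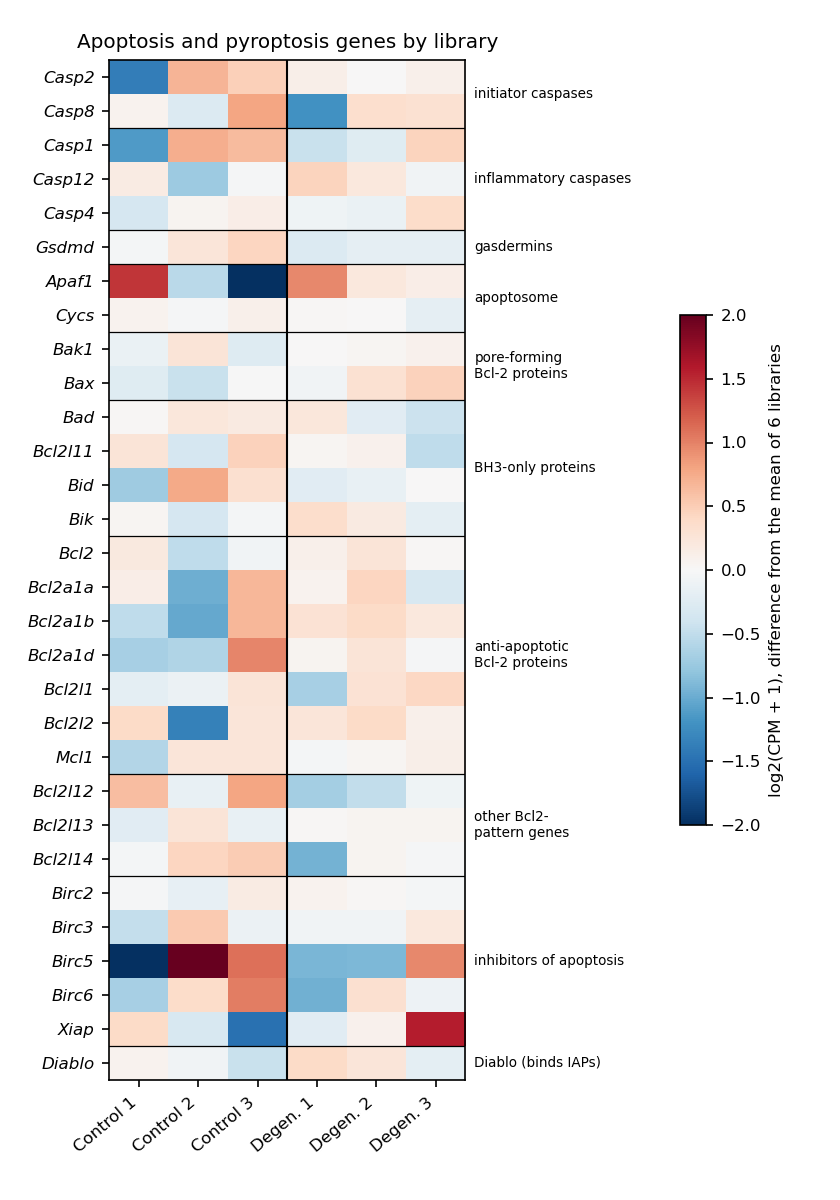
Deviation of 30 of the tested genes in each library from the gene's own mean over the 6 libraries (colour, difference of log2(CPM + 1); rows in order of role, columns are the 3 control and 3 degenerated libraries). Colours saturate at a difference of 2. The strongest colours are mostly in the control columns, and the values of the 2 groups overlap in every row but that of Gsdmd.

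The controls varied more than the degenerated libraries. The coefficient of variation was larger among the controls for 21 of the 31 genes (67.7%, against 56.2% of all genes tested), with medians of 29.5% in controls and 20.3% in degenerated libraries. For 14 genes (45.2%, against 21.4% of all genes) the highest and the lowest of the 6 values were both in controls. Control replicate 1 held the lowest value for 10 genes (32.3%, against 18.5%), among them Casp1, Casp2, Bid, Birc3, Birc5 and Mcl1. Control replicate 3 held the highest value for 13 of the 31 genes, where it did so for 18.6% of all genes. Without control replicate 1, the groups did not overlap for 12 of 32 genes tested (37.5%, against 33.1% of all genes), 9 of them lower and 3 higher in degenerated libraries, and 0 were called.

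Several of these genes followed the order of the neutrophil markers from library to library. The summed neutrophil markers were 256 CPM in control replicate 1, then 645, 1955 and 4658 CPM in degenerated replicates 1, 2 and 3, then 6677 and 13470 CPM in control replicates 3 and 2. Bid, Birc5 and Casp1 had exactly this order of libraries (3 of 31 genes, 9.68%, against 0.666% of all genes tested), and Mcl1 had it but for control replicates 2 and 3. With the marker sum as a covariate, an analysis chosen after seeing the data, the log2 fold change was 0.10 for Casp1, 0.24 for Birc5, -0.09 for Bid and 0.17 for Mcl1, and that of Gsdmd was -0.39. In that fit 0 of the 31 genes were called and 0 had an unadjusted p under 0.05. Casp1, Birc5, Bid and Mcl1 were picked for their order along the same marker sum, so the fit is no independent check of them. Other blood cell markers shared a part of this order. The summed B cell markers were also lowest in control replicate 1 (17.2 CPM) and highest in control replicate 2 (407 CPM). Erythroid markers were also highest in control replicate 2 (41502 CPM), though lowest in degenerated replicate 2 (3482 CPM). Neither sum had the full order of the neutrophil markers. For B cell markers, control replicate 3 (99.4 CPM) lay below degenerated replicate 3 (236 CPM). The part of neutrophils or of other blood cells in the levels of these genes was not tested directly.

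**Figure D3:**
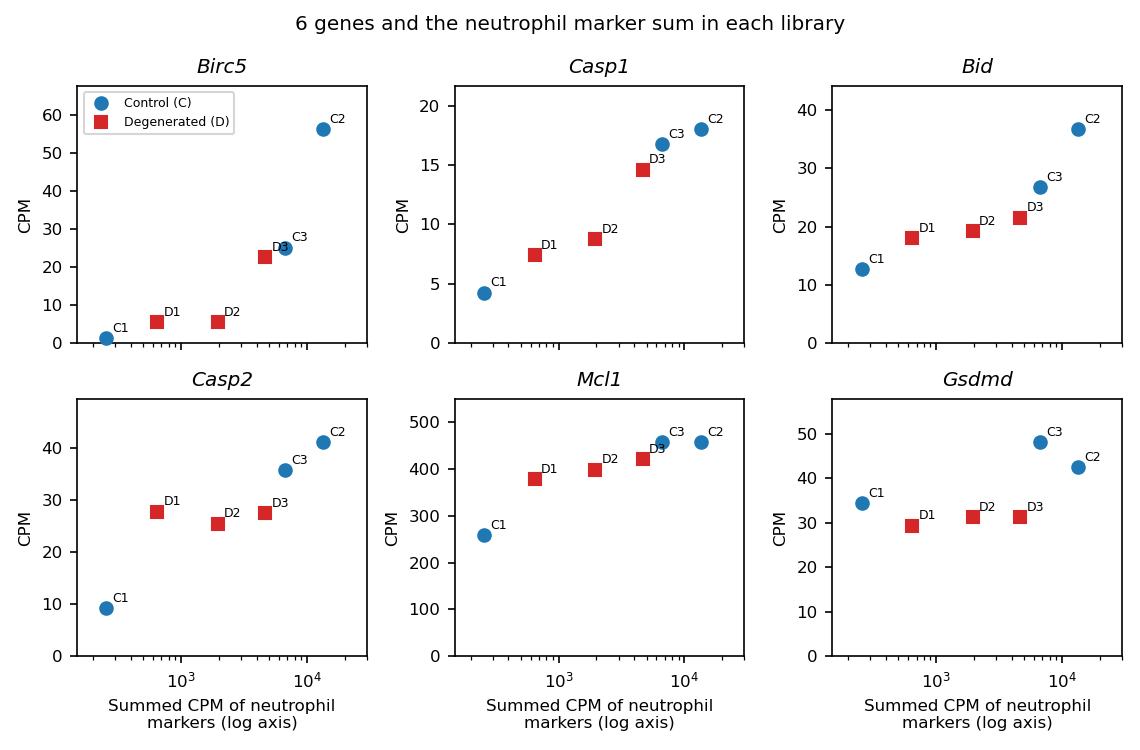
CPM of 6 genes (y axes, from 0) against the summed CPM of 9 neutrophil markers (x axes, log scale) in the 3 control (C, circles) and 3 degenerated (D, squares) libraries. Birc5, Casp1 and Bid increase from left to right in every step, with control replicate 1 at the left end and control replicate 2 at the right, while for Gsdmd the 3 squares lie below all circles.

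The table lists single transcripts, and a sum can hide a change of form. Of 238 annotated transcripts of the set 104 were listed and 53, of 31 genes, were tested. The only one called was Casp12-202, a retained-intron transcript, which was called higher. Over all 26065 transcripts tested 1.14% were called higher and 0.652% lower. An unadjusted p under 0.05 was found for 6 of the 53, 5 of them higher, against 7.55% of all transcripts. No gene had transcripts that passed that limit in opposite directions.

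Casp12 (chr9:5345430-5373032, plus strand) had all 5 annotated transcripts listed. The coding form Casp12-201 splices exon 6 to exon 7 and exon 7 to exon 8. Casp12-205, annotated for nonsense-mediated decay, begins exon 7 earlier by 11 bases (chr9:5353623-5353633), and Casp12-202 reads on from exon 7 into intron 7, of whose 665 bases it holds 580 (chr9:5353869-5354448). The sequences at these junctions are shown because they are what tells the forms apart. They are from the GENCODE M21 transcripts (GRCm38, plus strand, 24 bases on each side of the junction), 5′ to 3′, with the bases absent from the spliced coding form in capitals.
Casp12-201, exon 6 to exon 7: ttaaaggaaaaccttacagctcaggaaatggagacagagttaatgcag
Casp12-205, exon 6 to exon 7: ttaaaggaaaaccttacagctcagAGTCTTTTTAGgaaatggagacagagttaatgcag
Casp12-201, exon 7 to exon 8: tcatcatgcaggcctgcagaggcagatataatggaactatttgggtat
Casp12-202, exon 7 into intron 7: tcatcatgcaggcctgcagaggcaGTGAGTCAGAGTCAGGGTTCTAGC

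Casp12-202, the form with intron 7, had 1.64, 3.62 and 1.56 CPM in controls and 15.0, 10.3 and 7.50 CPM in degenerated libraries. All 3 degenerated values lay above the controls. Its log2 fold change was 2.26 ± 0.52 (SE; 95% interval 0.99 to 3.54), and the adjusted p over all transcripts was 0.499 by edgeR. It stayed between 1.98 and 2.76 when each library was left out, but was no longer called without control replicate 1 or 3 or degenerated replicate 1 or 2. With DESeq2 it was called, at an adjusted p of 0.00398 by that tool. The coding form Casp12-201 had 31.7, 12.5 and 24.7 CPM in controls and 3.81, 22.9 and 21.1 CPM in degenerated libraries, which overlap. In degenerated replicate 1 it held 8.64% of the gene's counts, against 61.6% to 84.5% in the other libraries, and Casp12-205, the form with the 11 extra bases, held 53.4% there, against 0% to 5.19%. These forms share most of their bases, and the rule by which the deposited counts were divided between them is not stated.

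The following transcripts were chosen after their values were seen. Xiap-207, a processed transcript, had 13.7, 14.8 and 9.39 CPM in controls and 22.8, 25.6 and 99.8 CPM in degenerated libraries, which do not overlap, and the coding form Xiap-203 had 5.26, 15.3 and 7.19 CPM and 13.8, 26.1 and 64.4 CPM, which do. Another coding form, Xiap-204, had 55.7 CPM in control replicate 1 and at most 10.6 CPM elsewhere. Birc6-202 had 75.0, 96.5 and 71.6 CPM in control replicates 2 and 3 and degenerated replicate 2, and at most 0.820 CPM in the other 3 libraries, whichever the group. Retained-intron transcripts of all genes had a log2 fold change above 0 in 56.2% of 5365 tested, and those of the set in 3 of 6.

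**Figure D4:**
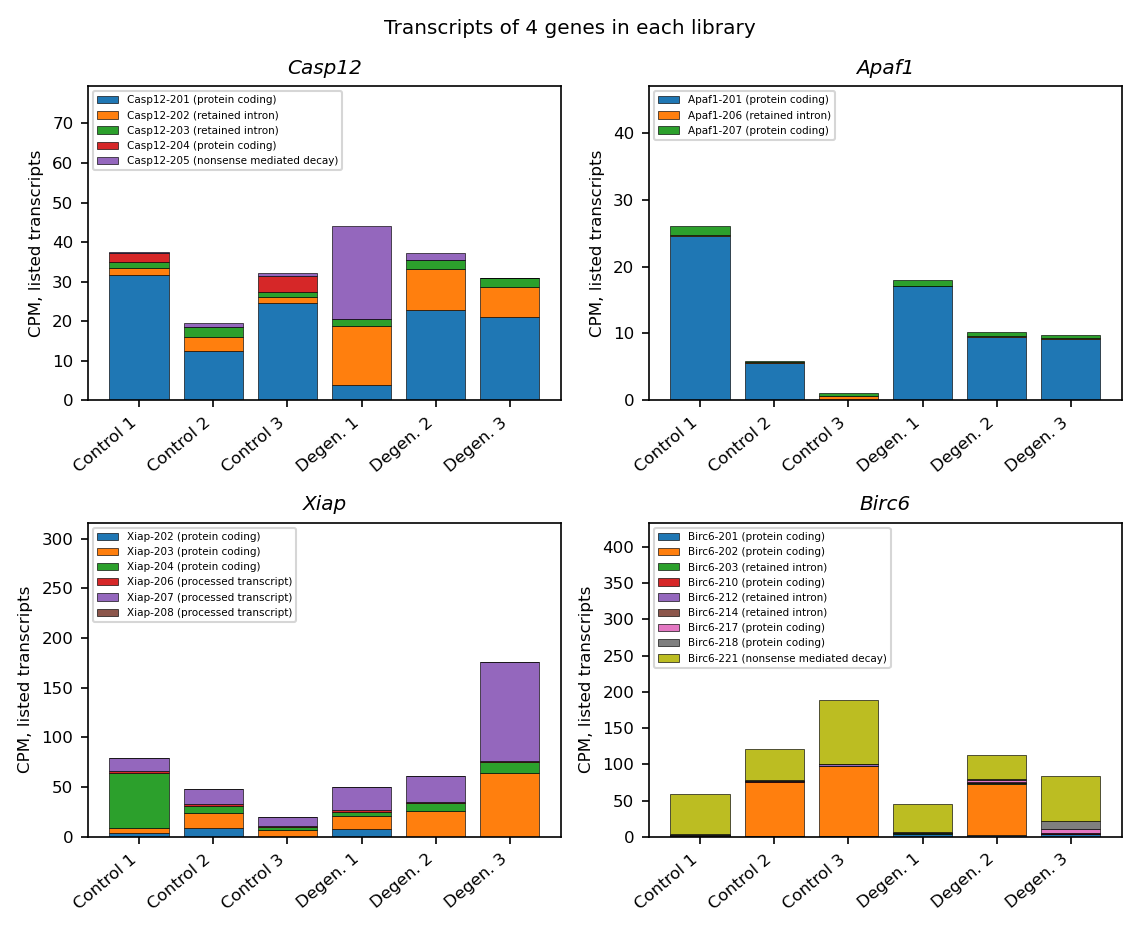
CPM of the listed transcripts of Casp12, Apaf1, Xiap and Birc6 (stacked bars from 0, 1 colour per transcript) in the 3 control and 3 degenerated libraries. The retained-intron form Casp12-202 is larger in all 3 degenerated bars, and forms of all 4 genes are large in 1 or more libraries and far smaller in others of the same group.

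Genes around the core machinery, from lists by pathway, gave 6 calls, 5 higher and 1 lower, with no adjusted p under 0.05 in edgeR's test. Over all genes tested 2.01% were called higher and 0.715% lower. In death receptor signalling 13 of 16 listed symbols were tested, 4 with a log2 fold change above 0 and 9 below (median -0.08). The 1 called higher was Tnfrsf1a, the main receptor for TNF, at 244 ± 8.07 CPM in degenerated libraries against 173 ± 16.4 CPM in controls (SD, n = 3 each; log2 fold change 0.49, adjusted p = 0.307 by edgeR). Leaving out any library but control replicate 2 ended this call, as did edgeR's exact test and the replicate number as a block, with a log2 fold change of 0.41 to 0.51. In the p53 and stress list 16 of 19 were tested and 12 had a log2 fold change above 0 (49.7% of all genes did), with a median of 0.25. Chac1, a glutathione-degrading enzyme of the unfolded protein response, was called higher there, at 6.32 ± 0.408 CPM and 15.6 ± 2.61 CPM (log2 fold change 1.3, adjusted p = 0.274 by edgeR). The BH3-only gene Hrk, a neuronal activator of death, had 16.7, 24.3 and 31.1 CPM in controls and 36.7, 40.6 and 38.6 CPM in degenerated libraries, which do not overlap, and was not called. It was named after its values were seen.

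In the list of neuronal JNK stress 11 of 14 were tested, 3 with a log2 fold change above 0 and 8 below (median -0.11). The 1 called higher was the injury-response factor Atf3, at 35.1 ± 8.73 CPM and 97.6 ± 6.26 CPM (log2 fold change 1.48, adjusted p = 0.175 by edgeR). In the necroptosis list 5 of 6 were tested and 1, Tlr3, the receptor for double-stranded RNA, was called lower, at 35.9 ± 12.7 CPM and 6.24 ± 0.146 CPM (log2 fold change -2.52, adjusted p = 0.105 by edgeR). In the list for clearance of dying cells 15 of 18 were tested, 7 with a log2 fold change above 0 and 8 below (median -0.29). Between the groups 5 of the 15 did not overlap (17.7% of all genes did not), 4 higher and 1, Gas6, lower (log2 fold change -0.32, not called). In this list 2 were called higher. These were Pros1, a bridge to phosphatidylserine (107 ± 10.4 CPM and 172 ± 17.2 CPM, log2 fold change 0.68), and Axl, a receptor for such bridges (189 ± 11.4 CPM and 254 ± 23.2 CPM, log2 fold change 0.42). The call of Axl ended without any 1 library but degenerated replicate 2, with a log2 fold change of 0.37 to 0.46, and with RLE normalization, limma-voom, edgeR's exact test, no filter, the replicate number as a block and the neutrophil covariate.

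The inflammasome list, the sensors and cytokines upstream and downstream of Casp1 and Gsdmd, had 15 of 19 genes tested, of which 0 were called and 0 did not overlap between the groups, and 0 had an unadjusted p under 0.05. Over all genes 17.7% did not overlap and 9.68% had such a p, so that counts this small in 15 genes say little about the list. Further along the mitochondrial step 16 of 18 genes were tested and 0 called, and of execution substrates and nucleases 8 of 12 were tested and 0 called. Of the 16, 2 did not overlap, each higher, and 0 had an unadjusted p under 0.05 by edgeR. Of the 8, 2 did not overlap and had such a p, Rock1 higher (log2 fold change 0.30) and Dffa lower (-0.40). DESeq2 called the 6 pathway genes named above and Map2k7, a kinase that activates JNK, and none in these 3 lists. Panx1, a membrane channel that caspases open, named after its values were seen, did not pass the filter, with 3.77, 4.60 and 0.319 CPM in controls and 0 in all 3 degenerated libraries, and it was called lower with no filter and without control replicate 3.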

How the data were processed

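The authors aligned reads with Hisat2 2.1.0 and estimated expression with StringTie 1.3.3b, per the study's methods, and deposited 1 table of raw counts per Ensembl transcript. The submitters' processing notes name Bowtie 0.12.2 and the builds mm8 and mm10. For the counting step and the annotation, nothing is given in the sources used here. The labels name a TruSeq RNA kit, and whether counting used strand is not given either, so overlapping genes on opposite strands may share counts.

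The design assumed gene counts, and the table turned out to list 65535 transcripts, which is the most rows that older spreadsheet programs hold below a header, so the list may have been cut short and a transcript that is not listed cannot be taken as undetected. Of these 65272 (99.6%) matched GENCODE M21 (GRCm38), and those that did not match held 0.125% of counts and were left out. Counts of listed transcripts were summed per gene. Of the 46 listed genes, 11 had every annotated transcript listed, 35 a part and 10 no principal (APPRIS) transcript. A gene's value is therefore that of its listed part.

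Libraries were grouped by the label group and tested over all genes in R 4.3.3 by the robust quasi-likelihood test of edgeR 4.0.16 with Benjamini-Hochberg adjustment, after filterByExpr and TMM normalization (factors of 0.983 to 1.02). The common biological coefficient of variation was 0.488. CPM are TMM-normalised, and transcripts were fitted separately on the same rules. Intervals are 95% intervals of the fit, and floors (3 counts) cover counting error only. Values in every library are given for genes of the set that were called or did not overlap, the 5 of highest mean CPM and textbook members fixed by name, and for further genes where stated. Alternatives were RLE and upper-quartile normalization, DESeq2 1.42.0, limma-voom (limma 3.58.1), edgeR's exact test, other filters, the replicate number as a block, each library left out and genes with every transcript listed. The covariate of neutrophil markers was chosen after seeing the data. The genes, lists and tests were chosen with earlier results of these data known. Counts over the genes include items whose own values are not reported here. The scripts were tested on simulated data.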

Additional observations from a re-analysis of the deposited data

How the results depend on the processing

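Under 16 alternatives 0 genes of the set were called, and the smallest adjusted p was 0.274 (edgeR, DESeq2 and limma). The median log2 fold change of the set stayed between -0.0702 and 0.1248. Of the 31 genes, 16 kept their sign under every alternative. The number of genes not overlapping, 1 in the main analysis, was 1 to 12 with a library left out (24.9% to 33.1% of all genes then) and 0 of 7 among genes with every transcript listed (18.4% of all such genes). The number of transcripts of the set called, 1 in the main analysis, was 2 with DESeq2 and 0 to 2 with a library left out. The 6 pathway calls became 1 among genes with every transcript listed, where fewer genes were tested. Over all genes the calls, 284 higher and 101 lower, were 479 and 306 with DESeq2, and 0 genes had an adjusted p under 0.05 in the main analysis, against 383 by DESeq2 and 115 by the exact test of edgeR. The causes were not tested.

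Same-numbered libraries did not deviate together (correlations of 0.160, -0.0905 and 0.0674), so the numbers were not taken to pair them. With the replicate block 160 genes were called higher and 58 lower, 0 of them in the set, its median was 0.0764 and 0 of its transcripts were called. Of the pathway genes Axl and Tnfrsf1a were no longer called with it.

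Some log2 fold changes changed sign. Bcl2a1a was -0.0056 with RLE, -0.017 with upper-quartile normalization, -0.0059 with DESeq2, -0.011 with no filter and -0.054 with the neutrophil covariate. With limma-voom, the block and the covariate in turn, Bcl2a1d was 0.27, 0.29 and 0.16, Birc3 0.048, 0.046 and 0.12, and Casp2 0.18, 0.14 and 0.42. With the covariate Birc5 was 0.24 and Casp1 0.099, against -1.29 and -0.35 in the main analysis. With each library left out in turn, 13 genes took both signs: Apaf1 -0.29 to 1.87, Bak1 -0.044 to 0.23, Bcl2a1a -0.40 to 0.50, Bcl2a1d -0.34 to 0.91, Bcl2l1 -0.12 to 0.38, Bcl2l13 -0.037 to 0.23, Bcl2l2 -0.078 to 0.60, Birc2 -0.058 to 0.10, Birc3 -0.23 to 0.32, Casp2 -0.53 to 0.26, Casp4 -0.082 to 0.21, Casp8 -0.57 to 0.051 and Mcl1 -0.21 to 0.16.

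With 3 libraries a group and the spread seen here, 18 of the 31 genes were not measured to within 1 on the log2 scale. The 15 genes not tested had too few counts in their listed transcripts, and for 10 listed genes the principal transcript was not in the counts. Groups of 3 libraries were too small for a test of single outlying libraries.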
